A study of Mus musculus with 8 samples.

Results

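The 45 genes described here encode chaperones, folding enzymes, stress sensors, degradation factors and membrane channels of the endoplasmic reticulum (ER). They were taken as a given list of gene symbols, grouped by function, which was chosen with earlier results of these data known. All 45 were found in both deposited count tables, out of 47643 identifiers in the macrophage table and 46844 symbols shared by both tables.

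RNA from cells sorted out of the bone marrow of wild-type B6 mice was sequenced as 8 libraries. GFP-marked Vk*MYC myeloma cells, from a mouse strain whose MYC transgene becomes active in germinal centre B cells, had been injected into the tibia. Sorting on high F4/80 and low CD11b gave tumour-associated macrophages (TAM), and GFP separated those in contact with myeloma (GFP+, here contact TAM, n = 2 libraries) from those not in contact (GFP-, here non-contact TAM, n = 2 libraries). Macrophages of naive mice (n = 2 libraries) were the controls, and a further pair of libraries is labelled as plasma cells. No group was treated, and the ages of the mice and the number of animals behind a library were not given. The study's design text speaks of both GFP high, CD138 high myeloma cells and CD138 high, B220 low polyclonal plasma cells of naive mice, but the labels of the plasma cell libraries do not say which of these each one holds. Whether the cells of the plasma cell libraries carry the MYC transgene is therefore not given. Libraries were built with a full-length low-input kit (SMART-Seq v4) that does not keep the RNA strand. Values are counts-per-million (CPM) of the library total unless another scale is named. Pairs of values are replicates 1 and 2, and 4 pairs in a row are non-contact TAM, contact TAM, naive macrophages and plasma cells. In bulk libraries fewer cells of a type and less RNA per cell cannot be told apart.

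Secreted and membrane proteins enter the ER through the Sec61 channel, lose their signal peptide to the signal peptidase complex, and fold with the help of the chaperone BiP, encoded by Hspa5, of disulfide isomerases and of proline isomerases. When unfolded protein builds up, the sensors IRE1 (Ern1), ATF6 and PERK start the unfolded protein response. IRE1 splices Xbp1 mRNA, ATF6 is cut to an active factor, and PERK signalling raises translation of Atf4, which in turn can induce Ddit3 (CHOP). Plasma cells depend on the XBP1 branch for antibody secretion, and misfolded proteins that cannot be rescued are pulled out through Sel1l, Syvn1 and the Derlins and degraded.

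Several members carry response elements of this pathway close to their start sites, and the stretches below are shown because they mark the genes through which the response is classically read. Promoter windows of RefSeq (250 bases before to 50 bases after the start site, GRCm38.p6) were present for 36 of the 45 members. The ER stress response element (ERSE) was searched on both strands as CCAAT, then 9 bases of any letter, then CCACG. Capitals mark the match, with 20 bases of the window on each side of it. Each sequence reads 5′ to 3′ on the gene's strand, so a match on the opposite strand appears as its reverse complement. Hspa5 (BiP) holds 1 match at chr2:34772005-34772063, plus strand:
Hspa5: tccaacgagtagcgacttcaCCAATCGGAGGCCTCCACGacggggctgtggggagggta
Hsp90b1 (GRP94, the ER form of HSP90) holds 2 matches in opposite orientation at chr10:86705513-86705676, minus strand:
Hsp90b1: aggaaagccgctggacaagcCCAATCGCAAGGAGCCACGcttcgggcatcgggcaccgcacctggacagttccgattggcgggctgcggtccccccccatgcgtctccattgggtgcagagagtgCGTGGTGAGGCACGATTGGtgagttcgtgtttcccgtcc
Calr (calreticulin) holds 1 at chr8:84847055-84847113, minus strand:
Calr: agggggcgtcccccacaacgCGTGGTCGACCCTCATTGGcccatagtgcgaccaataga
Creld2 holds 1 at chr15:88819500-88819558, plus strand:
Creld2: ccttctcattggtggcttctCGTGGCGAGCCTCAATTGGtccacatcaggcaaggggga
Derl3 holds 1 at chr10:75893222-75893280, plus strand:
Derl3: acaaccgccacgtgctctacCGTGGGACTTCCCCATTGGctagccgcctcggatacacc
Pdia6 holds 1 at chr12:17266471-17266529, plus strand:
Pdia6: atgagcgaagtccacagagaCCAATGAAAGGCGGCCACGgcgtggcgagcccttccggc

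The ERSE letters were found in 9 of the 36 member windows (25.0%) and in 37 of 27025 gene windows in all (0.137%). The members with a match were Calr, Canx, Creld2, Derl3, Dnajc3, Hsp90b1, Hspa5, Pdia6 and Syvn1. A second form, ERSE-II (ATTGG, 1 base of any letter, CCACG), was found in Herpud1 and, after the start site, in Dnajb11, against 12 of 27025 windows (0.0444%). Herpud1 encodes a membrane scaffold of the degradation machinery, and its match lies in chr8:94386357-94386407, plus strand:
Herpud1: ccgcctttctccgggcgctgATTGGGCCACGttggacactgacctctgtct
The element bound by XBP1 (UPRE, searched as TGACGTGG) was found in Txndc5 and Txndc11, against 193 of all windows (0.714%), and the Txndc5 match lies in chr13:38528025-38528072, minus strand:
Txndc5: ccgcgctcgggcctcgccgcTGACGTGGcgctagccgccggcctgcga
Herpud1 was the 1 member with the amino acid response element letters (TGATGCAA, in 279 of all windows, 1.03%), and 0 members held TGACGTCA (in 549 of all windows, 2.03%). The ERSE and ERSE-II letters do not overlap with each other in a window, a match is a description of letters, and none of these libraries measured binding. The start sites are those of RefSeq: the Hspa5 and Txndc5 stretches lie inside the longer gene models of GENCODE M21.

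Library totals ran from 28887725 to 81792139 counts, and every member stood above the limit that a count of 0 allows (3 counts, 0.0367 to 0.104 CPM) in every library. Immunoglobulin genes took 67.3% and 70.4% of the counts in plasma cells, so CPM there is compressed for all other genes. They took 0.166% to 0.632% in 5 macrophage libraries and 9.13% in non-contact TAM replicate 2 (95% Wilson interval 9.12% to 9.14%, counting error only). That library stands apart and is given separately where a result rests on it. A list of 11 plasma cell markers summed to 28894 CPM there, against 547 to 2492 in the other 5 macrophage libraries and 256744 and 338728 in plasma cells. Of that sum Igkc, itself an immunoglobulin gene, made up 23693 CPM and Jchain 3500 CPM, so it largely repeats the immunoglobulin share. Of the 11 markers, 9 were highest in that library among macrophages, and 0 were at a count of 0 in any library. The 12 macrophage markers summed to 18768 CPM in non-contact TAM replicate 2, against 21460 to 34117 in the other macrophage libraries. In plasma cells they summed to 370.4 and 449 CPM, and 0 were at a count of 0. Lyz2 alone stood at 15163 and 19978 CPM of the contact TAM sums of 21460 and 26232, against 4187 to 13761 in the other macrophage libraries. The sums therefore do not rank the libraries by macrophage content. Contact TAM were low in several macrophage markers, such as Vcam1 with 259.7 and 153 CPM against 4335 to 8636 CPM in the other macrophage libraries, and the median log2 fold change of the 12 markers was -2.64 for contact TAM over non-contact TAM (edgeR called 0, DESeq2 1 higher and 7 lower). The 8 neutrophil markers summed to 9466 and 18222 CPM in non-contact TAM and 29145 to 76519 CPM in the other macrophage libraries. Across the 6 macrophage libraries, the summed levels of other markers ranged from 124 to 530.4 CPM for B cells, 54.6 to 1794 for eosinophils, 25.8 to 198 for erythroid cells, 43.0 to 224 for megakaryocytes (highest in non-contact TAM replicate 2) and 12.4 to 58.9 for T cells. The part of any of these cell types in the member levels was not tested. The labels give the TAM replicates the numbers of mouse 1 and mouse 2, but Xist stood at 40.4 CPM in non-contact TAM replicate 2 and at 0.0 in contact TAM replicate 2, while Ddx3y, on the Y chromosome, stood at 0.258 and 88.4 CPM, so these 2 libraries are not from the same single animal.

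Plasma cells carried most of the secretory set at a higher level than any macrophage group once the immunoglobulin counts were allowed for. The 45 genes together took 7.98% and 9.47% of plasma cell counts outside immunoglobulin genes. In naive macrophages they took 0.901% and 1.06%, in contact TAM 0.975% and 0.863%, and in non-contact TAM 1.28% and 2.39%. In one edgeR quasi-likelihood model of all 8 libraries, 39 of the 45 members were higher in plasma cells than in naive macrophages and 0 were lower (12.3% of 15653 genes tested were higher and 15.3% lower). The median log2 fold change of the members was 3.46, against -0.21 for all genes. Against contact TAM 39 were higher (11.9% of all genes were, and 13.6% lower) with a median of 3.19, and against non-contact TAM 33 were higher (8.98% of all genes were, and 12.6% lower) with a median of 2.41, again with 0 lower. DESeq2 called 43, 41 and 38 members higher (18.3%, 17.5% and 14.2% of all genes). The plasma cell libraries are the same in all 3 comparisons, which are therefore not independent.

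The 6 members not called against naive macrophages were Calr, Canx and Pdia3, which form the lectin cycle for glycoproteins, and the stress regulators Ern1, Atf4 and Ddit3. By role, all 6 co-chaperones and secreted stress proteins, all 8 degradation factors, all 7 translocation genes and all 4 signal peptidase subunits were called higher. Of the folding enzymes 9 of 10 were, of the chaperones and lectins 3 of 5, and of the sensors and transcription factors 2 of 5 (Xbp1 and Atf6). The scale matters here. In CPM outside immunoglobulin counts (the library total taken without those genes), both plasma cell libraries lay above both naive libraries for 43 members (22.5% of all genes did), and by CPM for 33 (6.87% of all genes). With library totals as the only scaling, a choice made after seeing the data that moved the median of all genes to -2.25, 23 members were higher and 2 lower than naive (3.53% and 63.9% of all genes), and the member median was 1.33. On that scale 21 were higher and 4 lower than contact TAM (4.09% and 60.6% of all genes), and 11 higher and 3 lower than non-contact TAM (2.79% and 63.5%). Leaving out 1 naive library lowered the count of called members from 39 to 13 (without replicate 1) or 18 (without replicate 2), all higher, while the share of all genes called higher fell from 12.3% to 1.77% or 2.08%. For contact TAM the count fell to 20 or 22 without replicate 1 or 2 of that group (3.99% or 3.58% of all genes higher), and for non-contact TAM to 20 without plasma cell replicate 2 (3.87% of all genes higher). The 2 tables were deposited separately, so the table a library belongs to and its cell type cannot be told apart. Sex-linked genes differed as well. Xist stood at 0.196 and 0.313 CPM in plasma cells and 53.8 and 37.4 CPM in naive macrophages. Ddx3y, on the Y chromosome, stood at 23.3 and 15.6 CPM against 0.235 and 0.138 CPM. The sex of the animals and the cell type therefore cannot be told apart in this comparison either.

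**Figure D1:**
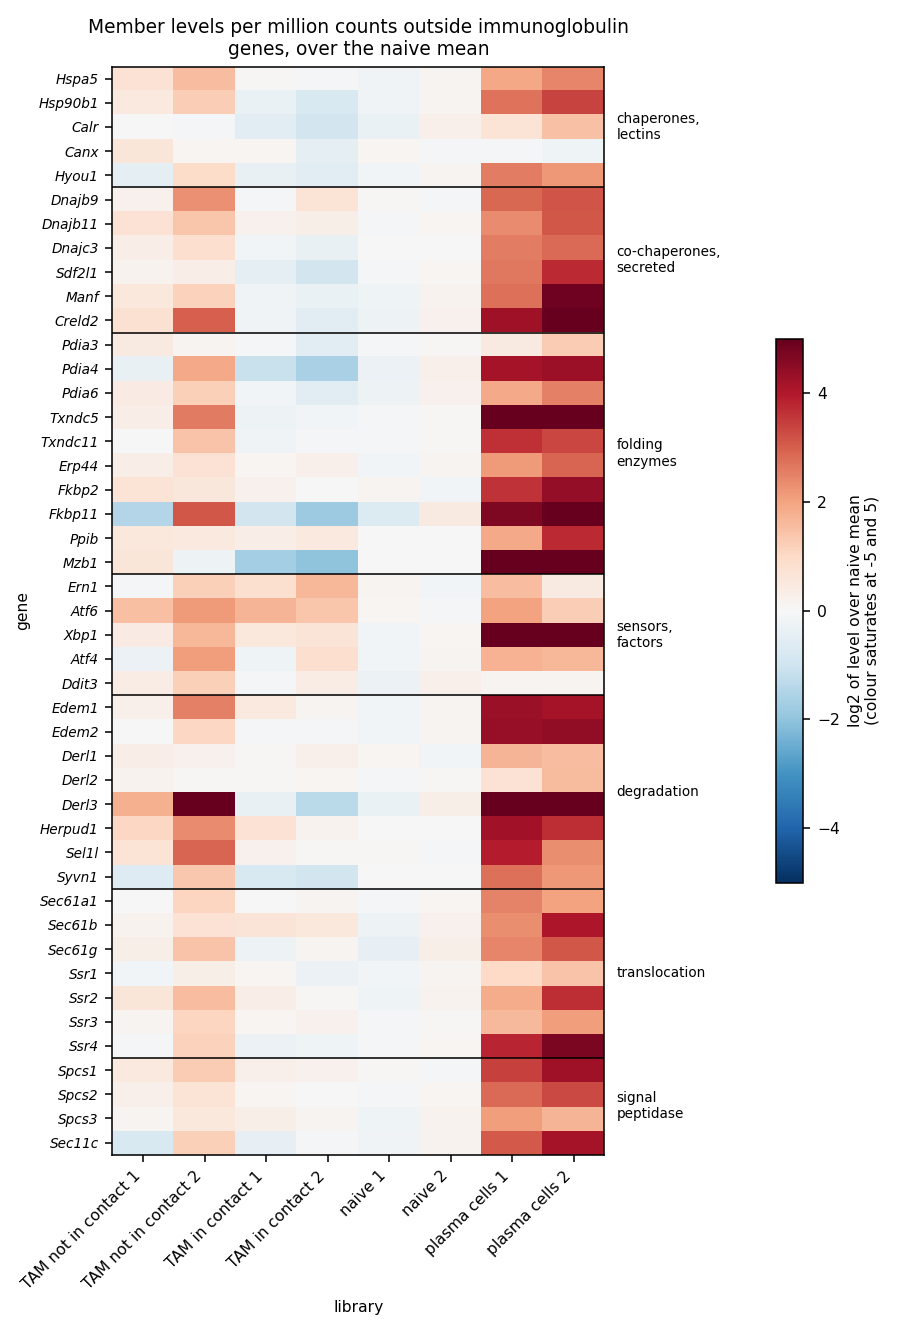
Log2 of each member's CPM outside immunoglobulin counts over the mean of the naive libraries, with 45 genes in rows grouped by role and 8 libraries in columns (colour saturates at -5 and 5). The plasma cell columns are red for nearly all genes, and non-contact TAM replicate 2 is the reddest of the 6 macrophage columns, being the highest of them in 36 of 45 genes on this scale.

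Within macrophages, no member passed edgeR's test in any of the 3 comparisons, which share libraries with each other. Contact TAM against non-contact TAM gave 0 called members and 0 called genes (0.0% of 15522), with 17 members and 2653 genes at an unadjusted p under 0.05. The members leaned one way: 42 of 45 log2 fold changes were negative, their median was -0.71 against 0.00 for all genes, and in 27 members both contact TAM libraries lay below both non-contact TAM libraries (22.3% of all genes did) while 0 lay above (24.3% of all genes). DESeq2 called 13 members lower (7.09% of all genes): Hspa5, Hsp90b1, Dnajc3, Sdf2l1, Manf, Creld2, Pdia4, Pdia6, Txndc5, Fkbp11, Mzb1, Derl3 and Sel1l. Without non-contact TAM replicate 2 the median was -0.24, edgeR called 0 members (0.0% of all genes) and DESeq2 called 4 lower (3.82% of all genes). Without non-contact TAM replicate 1, which leaves the immunoglobulin-rich library alone in its group and assumes that it varies like the others, edgeR called 14 lower (6.64% of all genes).

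Non-contact TAM against naive macrophages leaned towards higher levels, with the same non-contact TAM libraries. EdgeR called 0 members and 0 genes (0.0%), with 18 members and 2354 genes at an unadjusted p under 0.05. All 45 log2 fold changes were positive, with a median of 0.73 against 0.06 for all genes, and 25 members lay higher without overlap (16.6% of all genes) and 0 lower (28.9% of all genes). DESeq2 called 10 higher (4.36% of all genes): Hspa5, Dnajb11, Manf, Creld2, Atf6, Derl3, Herpud1, Sel1l, Ssr2 and Spcs1. Without replicate 2 of non-contact TAM, the median was 0.49 with 0 members called by edgeR (1.66% of all genes were) and 4 called higher by DESeq2 (4.33% of all genes), and without replicate 1 edgeR called 9 higher (2.39% of all genes).

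Contact TAM and naive macrophages had 27 positive and 18 negative log2 fold changes over the set. EdgeR called 0 members, against 34 genes in all (0.219%), and 5 members had an unadjusted p under 0.05. The median was 0.16 against 0.00 for all genes. A total of 10 members lay higher without overlap (23.0% of all genes) and 13 lower (36.7% of all genes). DESeq2 called Atf6 higher and Mzb1 lower (7.86% of all genes in either direction), and edgeR called 2 members when replicate 1 or 2 of non-contact TAM was left out of the shared fit (3.13% and 2.92% of all genes).

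Chaperones and lectins come first, because they receive the chain as it emerges. Hspa5 (ENSMUSG00000026864.13, GRCm38 chromosome 2, 34771970 to 34777547, plus strand) encodes BiP, the main ER HSP70. Hspa5 stood at 2231 and 3635 CPM in non-contact TAM, 1431 and 1281 in contact TAM, 1199.6 and 1501 in the naive pair, and 1689 and 2180.4 in the plasma cell pair. Both non-contact TAM libraries were above the other 4 macrophage libraries, and even replicate 1, with 0.398% immunoglobulin counts, exceeded the highest of those. The log2 fold change of non-contact TAM over naive was 1.25 ± 0.42 (SE, n = 2 per group, edgeR adjusted p = 0.265, DESeq2 adjusted p = 0.00884). Outside immunoglobulin counts, Hspa5 reached 5162 and 7370.1 CPM in plasma cells against 1205 and 1511 in naive macrophages.

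Hsp90b1 (ENSMUSG00000020048.13, chromosome 10, 86690209 to 86705509, minus strand) was measured at 954 and 1459.6 CPM in non-contact TAM, 535 and 396 in contact TAM, 603 and 742 in the naive pair, and 1436 and 2068 in the plasma cell pair. Its groups did not overlap between the TAM, and the log2 fold change of contact TAM over non-contact TAM was -1.36 ± 0.37 (edgeR adjusted p = 0.200, DESeq2 adjusted p = 0.00183). Some 50-base windows of its transcripts also occur in other genes (1810014B01Rik and Gm15344), so reads could be split. Hyou1, the large HSP70-like chaperone GRP170, stood at 25.1 and 59.3, 27.0 and 24.2, 31.3 and 37.7, and 66.5 and 45.8 CPM for these groups in turn, and its excess in non-contact TAM rested on replicate 2 (log2 fold change of contact TAM over non-contact TAM -0.69 ± 0.40, edgeR adjusted p = 0.430, and 0.0096 by DESeq2 without that library).

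The lectin chaperones did not follow. Calr stood at 1016 and 874, 700.3 and 539, 827 and 1231, and 546 and 839 CPM. Canx (calnexin, its membrane-bound partner) stood at 863 and 544, 595 and 405, 598 and 523, and 177 and 143 CPM. Both were lower in non-contact TAM replicate 2 than in replicate 1, the reverse of Hspa5. Over naive macrophages, the plasma cell log2 fold change was 1.53 ± 0.54 for Calr (edgeR adjusted p = 0.0689, DESeq2 adjusted p = 0.00146) and 0.24 ± 0.44 for Canx (edgeR adjusted p = 0.703, DESeq2 adjusted p = 0.526). With library totals only these turned to -0.58 and -1.82, so no direction holds on every scale.

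All 6 co-chaperones and secreted stress proteins, like all 4 signal peptidase genes, were highest of the macrophage libraries in non-contact TAM replicate 2. Creld2 (ENSMUSG00000023272.3, chromosome 15, 88819646 to 88826683, plus strand), a secreted disulfide isomerase induced by ER stress, stood at 118 and 503 CPM in non-contact TAM, 61.4 and 49.0 in contact TAM, 59.0 and 80.7 in the naive pair, and 432 and 940.4 in the plasma cell pair. Both non-contact TAM libraries were above the other macrophages, replicate 1 by less than replicate 2. The log2 fold change of contact TAM over non-contact TAM was -2.46 ± 0.66 (edgeR adjusted p = 0.197, DESeq2 adjusted p = 0.00349). Manf, a secreted ER stress protein with survival activity, stood at 103 and 143, 63.2 and 56.2, 61.4 and 80.4, and 159 and 614 CPM. Its log2 fold change was -1.03 ± 0.27 in the same comparison (edgeR adjusted p = 0.192, DESeq2 adjusted p = 0.0131), and its plasma cell libraries lay further apart than those of any other member, 4.28-fold outside immunoglobulin counts.

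Dnajb11 (ERdj3), which delivers clients to BiP, stood at 265 and 379.9, 189.9 and 198, 150.0 and 172, and 276 and 408 CPM. Non-contact TAM over naive gave 1.14 ± 0.28 (edgeR adjusted p = 0.227, DESeq2 adjusted p = 0.00496), with no overlap between groups. Dnajb9 (ERdj4), a repressor of IRE1, stood at 36.0 and 138, 29.0 and 49.9, 32.3 and 28.9, and 74.4 and 80.1 CPM, so that non-contact TAM replicate 2 was above both plasma cell libraries by CPM. Outside immunoglobulin counts the order turned, with 152 CPM in that library against 227 and 271 in plasma cells. Dnajc3 (P58IPK), an ER co-chaperone that also restrains PERK, stood at 283 and 363, 201 and 174, 218 and 227, and 432 and 465 CPM. Sdf2l1, a partner of ERdj3, stood at 144 and 148, 92.1 and 68.7, 119 and 138, and 261 and 512 CPM, so its gap between the non-contact TAM libraries was small.

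Among folding enzymes, Txndc5 (ENSMUSG00000038991.16, chromosome 13, 38500079 to 38528824, minus strand), a thioredoxin-domain isomerase abundant in plasma cells, stood at 238 and 1054 CPM in non-contact TAM, 160.0 and 173 in contact TAM, 180.4 and 201 in the naive pair, and 3908 and 1980.5 in the plasma cell pair. Plasma cells over naive macrophages gave a log2 fold change of 5.97 ± 0.94 (edgeR adjusted p = 0.00432), which no longer passed without naive replicate 1 (adjusted p = 0.0592) or naive replicate 2 (adjusted p = 0.0537). Contact TAM over non-contact TAM gave -1.92 ± 0.66 (edgeR adjusted p = 0.235, DESeq2 adjusted p = 0.0324). Pdia4, a disulfide isomerase that acts with BiP, stood at 182 and 790.2, 108 and 75.9, 192 and 275, and 1365 and 1344 CPM. It gave -2.37 ± 0.68 in the TAM comparison (edgeR adjusted p = 0.205, DESeq2 adjusted p = 0.00662), but replicate 1 of non-contact TAM was below both naive libraries.

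Fkbp11, a proline isomerase of secretory cells, had the widest gap inside 1 group: 1.28 and 27.8 CPM in non-contact TAM, 1.87 and 0.997 in contact TAM, 2.18 and 4.81 in the naive pair, and 29.5 and 114 in the plasma cell pair. Fkbp2, a related isomerase, showed no such gap, at 51.1 and 43.0, 37.3 and 32.3, 34.9 and 28.5, and 129 and 198 CPM. Its plasma cell log2 fold change over naive was 4.46 ± 0.44 (edgeR adjusted p = 0.00197). Pdia3, the isomerase that works with calreticulin and calnexin, stood at 1247 and 919, 872 and 645, 870.1 and 960.1, and 409 and 660.3 CPM, with 1.32 ± 0.53 over naive in plasma cells (edgeR adjusted p = 0.0989, DESeq2 adjusted p = 0.00661) and -0.78 with library totals only. The isomerase Pdia6 stood at 638 and 1006, 438 and 334, 412 and 559, and 597 and 834 CPM.

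Txndc11 and Erp44, thioredoxin-domain proteins of the ER, and Ppib, a cyclophilin, complete the role. Txndc11 stood at 239 CPM in non-contact TAM replicate 2, between 85.2 and 100.3 in the other 5 macrophage libraries, and at 401 and 287 in plasma cells. Erp44 stood at 163 and 196, 140.3 and 157, 119 and 141, and 185 and 287 CPM. Ppib stood at 35.8 and 32.2, 31.1 and 35.2, 24.4 and 25.3, and 30.7 and 99.4 CPM, and 31.2% of its 50-base windows occur in other genes. Of these, Ppib was not highest in non-contact TAM replicate 2.

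Mzb1 (ENSMUSG00000024353.4, chromosome 18, 35647267 to 35649367, minus strand), a BiP cofactor for antibody assembly found in B cells and plasma cells, stood at 21.6 and 11.0 CPM in non-contact TAM, 4.43 and 3.56 in contact TAM, 14.0 and 14.7 in the naive pair, and 782 and 1583 in the plasma cell pair. Plasma cells over naive gave 8.47 ± 0.83 (edgeR adjusted p = 0.00197), the largest change of the 45. The library with 9.13% immunoglobulin counts thus held less Mzb1 than its partner with 0.398%. Contact TAM was lower than both other groups, at -2.03 ± 0.44 against non-contact TAM (edgeR adjusted p = 0.166, DESeq2 adjusted p = 0.000646) and -1.69 against naive (edgeR adjusted p = 0.206), without overlap in either. Of the 50-base windows of Mzb1 transcripts 75.7% also lie in SPATA24, a gene model that overlaps it, so its counts depend on how shared reads were assigned, and that was not tested.

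**Figure D2:**
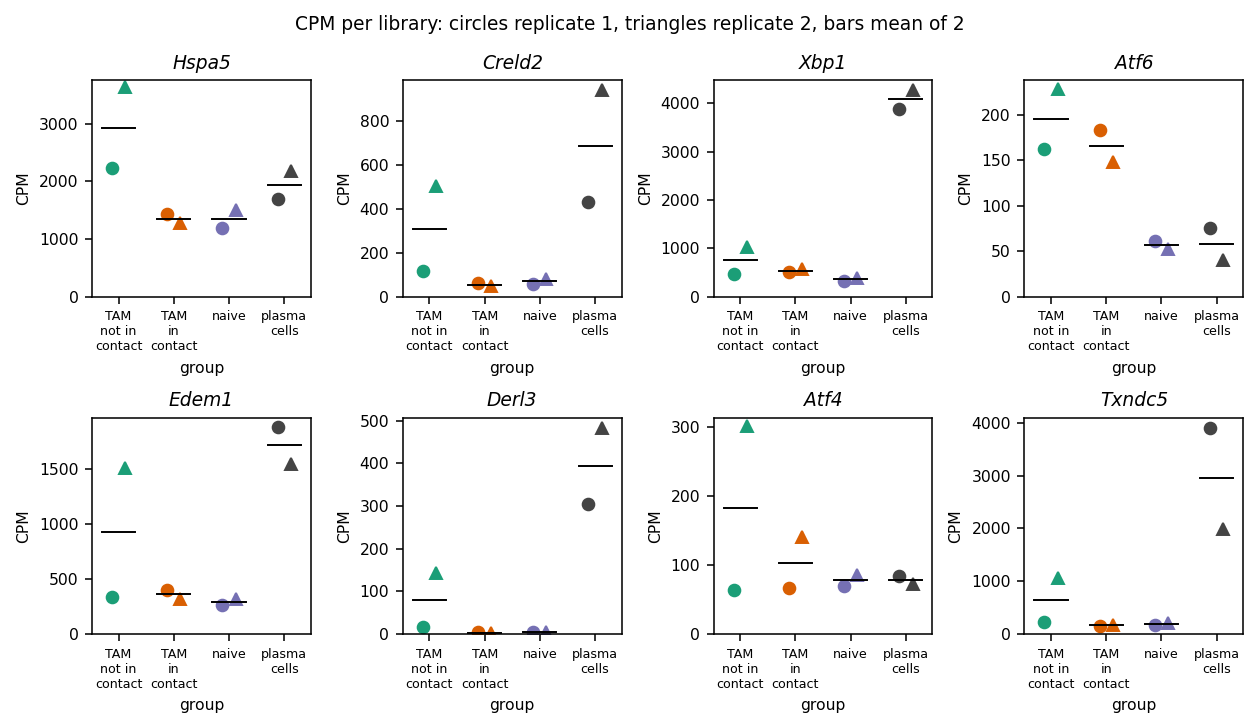
CPM of 8 members in each library, by group (circles replicate 1, triangles replicate 2, bars the mean of 2), each panel with its own axis from 0. Atf6 is above naive in all 4 TAM libraries, whereas Creld2, Edem1, Derl3, Atf4 and Txndc5 are each far above their partner in non-contact TAM replicate 2, with 503, 1505, 143, 302 and 1054 CPM.

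The sensors and transcription factors split into different patterns. Atf6 (ENSMUSG00000026663.6, chromosome 1, 170704674 to 170867771, minus strand) was measured at 163 and 229 CPM in non-contact TAM, 184 and 148 in contact TAM, 61.5 and 52.6 in the naive pair, and 75.3 and 39.9 in the plasma cell pair. All 4 TAM libraries, from either side of the contact sort, were above both naive libraries. Non-contact TAM over naive gave 1.91 ± 0.28 (edgeR adjusted p = 0.219, DESeq2 adjusted p = 4.81e-07) and contact TAM over naive gave 1.70 (edgeR adjusted p = 0.0977). This did not rest on the immunoglobulin-rich library: without it the values were 1.64 for non-contact TAM and 1.65 for contact TAM by DESeq2 (adjusted p = 4.57e-05 and 1.35e-07).

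Ern1, the gene of IRE1, had its highest mean in contact TAM, at 44.2 and 80.3 CPM, against 24.5 and 52.6 in non-contact TAM, 28.0 and 22.8 in the naive pair and 24.6 and 10.4 in the plasma cell pair. Contact TAM over naive gave 1.46 ± 0.47 (edgeR adjusted p = 0.269, DESeq2 adjusted p = 0.0790), so the change passed neither test, although the libraries did not overlap. In plasma cells over naive the log2 fold change was 1.47 ± 0.51 (edgeR adjusted p = 0.0641, DESeq2 adjusted p = 0.0143), and -0.55 with library totals only.

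Xbp1 (ENSMUSG00000020484.18, chromosome 11, 5520659 to 5525893, plus strand), whose spliced product drives the plasma cell secretory programme, stood at 474 and 1029.6 CPM in non-contact TAM, 517 and 566 in contact TAM, 332 and 389 in the naive pair, and 3886 and 4279.9 in the plasma cell pair. The counts do not separate spliced from unspliced Xbp1. Plasma cells over naive gave 5.58 ± 0.78 (edgeR adjusted p = 0.00315), which became 5.46 (adjusted p = 0.0519) without naive replicate 1. All 4 TAM libraries were above both naive ones, but non-contact TAM over naive gave 1.19 ± 0.43 (edgeR adjusted p = 0.283, DESeq2 adjusted p = 0.0753).

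Atf4 stood at 63.8 and 302 CPM in non-contact TAM, 66.7 and 141 in contact TAM, 70.4 and 85.6 in the naive pair, and 84.5 and 72.6 in the plasma cell pair. Replicate 2 of non-contact TAM was thus above both plasma cell libraries, while replicate 1 was the lowest of the 8. The log2 fold change of non-contact TAM over naive was 1.35 ± 0.73 (edgeR adjusted p = 0.444, DESeq2 adjusted p = 0.313), and it turned to -0.12 without replicate 2 (-0.16 by DESeq2). Ddit3 stood at 17.3 and 27.6, 12.9 and 17.2, 10.7 and 15.7, and 4.82 and 4.28 CPM. CHOP mRNA was therefore lowest in plasma cells by CPM, but outside immunoglobulin counts its 14.7 and 14.5 CPM lay between the naive values of 10.7 and 15.8. Non-contact TAM over naive gave 0.90 ± 0.37 for Ddit3 (edgeR adjusted p = 0.335, DESeq2 adjusted p = 0.240). Plasma cells over naive gave 0.53 ± 0.38 for Ddit3 (edgeR adjusted p = 0.333, DESeq2 adjusted p = 0.270; -1.54 with library totals only) and 2.07 ± 0.68 for Atf4 (edgeR adjusted p = 0.0568, DESeq2 adjusted p = 0.00491).

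The degradation factors had the largest typical gap between the non-contact TAM libraries, with a median ratio of 2.93 of replicate 2 over replicate 1. Derl3 (ENSMUSG00000009092.4, chromosome 10, 75893413 to 75895941, plus strand), the Derlin of secretory cells, stood at 16.4 and 143 CPM in non-contact TAM, 3.78 and 1.90 in contact TAM, 3.82 and 5.85 in the naive pair, and 305 and 483 in the plasma cell pair. Replicate 1 alone was above every other macrophage library outside its group. Contact TAM over non-contact TAM gave -4.78 ± 1.05 (edgeR adjusted p = 0.166, DESeq2 adjusted p = 7.04e-06), and without replicate 2 DESeq2 gave -2.56 (adjusted p = 0.00127). Plasma cells over naive gave 8.45 ± 1.20 (edgeR adjusted p = 0.00328). Its family members went another way: Derl1 stood at 226 and 192, 190.3 and 218, 195 and 166, and 193 and 158 CPM, and Derl2 at 89.2 and 74.3, 82.3 and 84.4, 73.8 and 82.2, and 42.3 and 68.7 CPM. Both were highest in non-contact TAM replicate 1.

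Sel1l (ENSMUSG00000020964.14, chromosome 12, 91806043 to 91849157, minus strand), the adaptor of the ubiquitin ligase, stood at 330.4 and 1430.4 CPM in non-contact TAM, 244 and 217 in contact TAM, 218 and 197 in the naive pair, and 1033 and 309.8 in the plasma cell pair. By CPM non-contact TAM replicate 2 was above both plasma cell libraries, but outside immunoglobulin counts its 1574 CPM lay between their 3157 and 1047. Non-contact TAM over naive gave 2.20 ± 0.66 (edgeR adjusted p = 0.245, DESeq2 adjusted p = 0.0145). Herpud1 (ENSMUSG00000031770.15, chromosome 8, 94386438 to 94395377, plus strand), whose window carries both elements named above, stood at 415 and 936, 329 and 228, 202 and 200.5, and 1209 and 764 CPM. All 4 TAM libraries were above naive, with 1.88 ± 0.45 for non-contact TAM over naive (edgeR adjusted p = 0.223, DESeq2 adjusted p = 0.00238).

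Edem1, which takes mannose-trimmed glycoproteins to degradation, stood at 341 and 1505, 404 and 315, 259.9 and 316, and 1881 and 1544 CPM. Its relative Edem2 stood at 156 and 287, 142 and 143, 138 and 169, and 1026 and 975 CPM, with plasma cells 4.77 ± 0.56 over naive (edgeR adjusted p = 0.00217). The ligase gene Syvn1 stood at 84.8 and 305, 76.8 and 70.2, 132 and 130.0, and 289 and 175 CPM. Naive macrophages had more Syvn1 than 3 of the 4 TAM libraries, and the fourth was non-contact TAM replicate 2.

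Translocation and signal peptidase genes bring the chain into the ER, and their median log2 fold changes for non-contact TAM over naive were 0.70 and 0.54. Sec61a1, the pore subunit, stood at 302 and 571, 297 and 326, 276 and 312, and 542 and 353 CPM. Ssr2, a subunit of the channel-associated TRAP complex, stood at 136 and 238, 110.5 and 91.6, 76.4 and 100.1, and 106 and 336 CPM, and non-contact TAM over naive gave 1.21 ± 0.33 (edgeR adjusted p = 0.234, DESeq2 adjusted p = 0.0303). Ssr3 gave 0.72 ± 0.33 in that comparison (edgeR adjusted p = 0.370), with 248 and 426, 239 and 259, 214 and 233, and 226 and 280.4 CPM. Sec61b, a small channel subunit, was the member of this role that was not highest in non-contact TAM replicate 2. It stood at 17.6 and 23.4, 24.3 and 22.8, 13.1 and 18.2, and 25.8 and 76.6 CPM, with 0.75 ± 0.29 for contact TAM over naive (edgeR adjusted p = 0.326, DESeq2 adjusted p = 0.223). Sec61g had the lowest CPM of the 45 in every library, at 0.491 to 1.64 CPM, and 20.5% of its 50-base windows occur in other genes. The remaining TRAP subunits differed in plasma cells. Ssr1 stood at 165 and 203, 195 and 149, 167 and 199, and 122 and 147 CPM, while Ssr4, in CPM outside immunoglobulin counts, stood at 681 and 1254 in plasma cells against 45.3 and 51.3 in naive macrophages.

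Of the signal peptidase genes, Spcs1 stood at 69.4 and 109, 58.5 and 57.0, 51.3 and 47.4, and 171 and 278 CPM, with 0.99 ± 0.27 for non-contact TAM over naive (edgeR adjusted p = 0.233, DESeq2 adjusted p = 0.0467). Spcs2 stood at 254 and 307, 227 and 214, 197 and 223, and 493 and 621 CPM, and Spcs3 at 307 and 366, 342 and 307, 239 and 318, and 389 and 273 CPM. In that comparison they gave 0.56 ± 0.25 (edgeR adjusted p = 0.372) and 0.41 ± 0.29 (adjusted p = 0.562). The catalytic subunit gene Sec11c stood at 79.6 and 280.2, 101 and 130.3, 119.9 and 151, and 377 and 714 CPM, so replicate 1 of non-contact TAM was the lowest macrophage library and replicate 2 the highest.

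Ranked per kilobase of exon, on mean CPM, the order of the members changed with the cell type. Xbp1 led in plasma cells at 1257 CPM per kb, followed by Mzb1 at 973, Txndc5 at 655, Pdia4 at 565 and Creld2 at 502. In naive macrophages Calr led at 357 CPM per kb, followed by Hspa5 at 319, Pdia3 at 291.5 and Hsp90b1 at 167, while Xbp1 was at 111 and Mzb1 at 11.8. Hspa5 led in both TAM groups, at 694 CPM per kb not in contact and 321 in contact. Neighbouring ranks were not tested against each other. Within pairs of libraries the members were close in naive macrophages (median 1.18-fold apart, 1 of 45 over 2-fold) and contact TAM (1.16-fold, 1 over 2-fold), and wider in non-contact TAM (1.72-fold, 17 over 2-fold) and in plasma cells outside immunoglobulin counts (1.59-fold, 11 over 2-fold). In plasma cell replicate 2, Sdf2l1, Manf, Creld2, Fkbp11, Ppib, Mzb1, Sec61b, Ssr2 and Sec11c were over 2-fold higher than in replicate 1, and Ern1 and Sel1l over 2-fold lower. Over all genes, 14.3% differed by more than 2-fold in the naive pair (median 1.28-fold) and 18.9% in contact TAM (1.29-fold). In non-contact TAM 34.4% did (1.57-fold) and in plasma cells 34.8% (1.63-fold), so a wider spread in either direction was not particular to the members. In non-contact TAM 37 of the 45 members were higher in replicate 2. Their median ratio to replicate 1 was 1.63, against 1.06 for all genes.

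The immunoglobulin-rich library, non-contact TAM replicate 2, was the highest of the 6 macrophage libraries for 35 of the 45 members, against 24.3% of all genes. It exceeded its partner by more than 2-fold for 17 members (24.4% of all genes did), and lay below it for 8. The median ratio was 1.63 for the members and 1.06 for all genes, and the largest ratios were 21.7 for Fkbp11, 8.74 for Derl3, 4.73 for Atf4, 4.44 for Txndc5, 4.42 for Edem1, 4.34 for Pdia4 and 4.33 for Sel1l. The 10 members that were not highest there were Calr, Canx, Pdia3, Fkbp2, Ppib, Mzb1, Ern1, Derl1, Derl2 and Sec61b. Its immunoglobulin counts also differed in kind: Ighg2b made up 56.6% of them, against 10.7% to 20.3% in the other macrophage libraries and 7.21% and 5.41% in plasma cells. Myc stood at 2801 CPM there, against 66.4 to 208 CPM in the other macrophage libraries and 30.5 and 38.7 in plasma cells.

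To set the plasma cell profile beside this library, the mean plasma cell CPM of each member was multiplied by the ratio of immunoglobulin shares (13.3%). The resulting level was a median of 14.0% of the member's CPM in non-contact TAM replicate 2, and 0.590% to 2.17% in the other macrophage libraries. For 40 members that library exceeded the mean of the other 5 macrophage libraries (the share of all genes was not computed for this measure). The scaled plasma cell level was below that excess in 35 of them and less than 0.5 times it in 26. For Hspa5 the scaled level was 257 CPM and the excess 2106 CPM. For Sel1l the values were 89.0 and 1189 CPM, for Edem1 227 and 1178 CPM, and for Atf4 10.4 and 216 CPM. For a few members the values were nearly equal, such as Xbp1 with 541 and 574 CPM and Edem2 with 133 and 137 CPM. Mzb1 went the other way, with a scaled level of 157 CPM against 11.0 CPM measured. With Jchain in place of the immunoglobulin sum, the ratio was 5.09% and the median 5.37% of the member's level. The scaling assumes that the immunoglobulin counts came with the mean profile of the deposited plasma cell libraries. That profile differed from this library in the Ighg2b share of immunoglobulin counts (7.21% and 5.41% against 56.6%) and in Myc (30.5 and 38.7 against 2801 CPM). The scaled levels therefore set no limit on the part of plasma cell or myeloma RNA in its member levels, and that part was not tested.

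**Figure D3:**
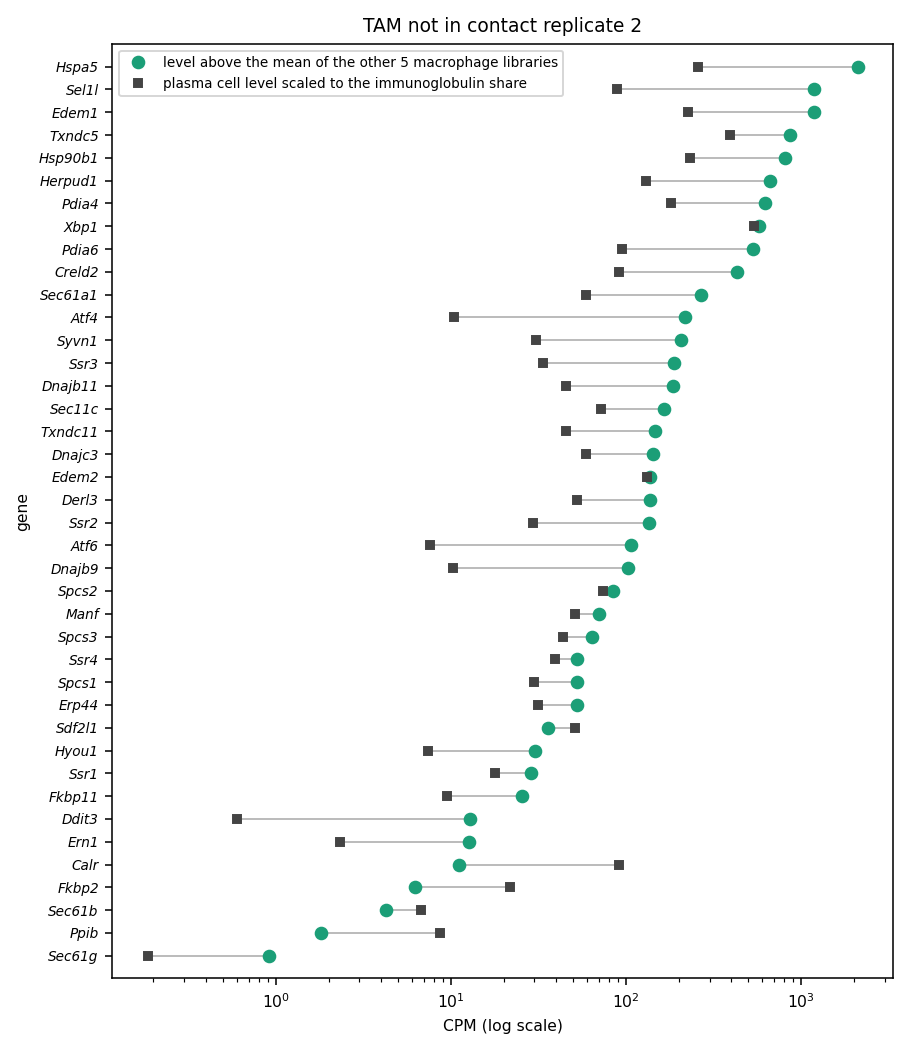
For the 40 members above the mean of the other 5 macrophage libraries in non-contact TAM replicate 2, that excess in CPM (green circles) and the plasma cell level scaled to the library's immunoglobulin share (dark squares), on a log axis. Circles lie right of squares in 35 of 40 genes, by most for genes such as Sel1l, Atf4 and Ddit3, and Xbp1 and Edem2 nearly coincide.

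Across the 45 genes, which are not independent replicates, the log2 ratio of the non-contact TAM libraries (replicate 2 over replicate 1) and the log2 ratio of plasma cells over naive macrophages outside immunoglobulin counts had a Spearman correlation of 0.44 and a Pearson correlation of 0.44, against 0.0810 and 0.182 over 12545 genes with counts in every library. The relation had exceptions on both sides. Mzb1 had one of the highest plasma cell ratios and a replicate ratio under 1, while Atf4 had a replicate ratio of 4.73 with plasma cell levels of 258 and 245 against 70.8 and 86.1 in naive macrophages, in CPM outside immunoglobulin counts.

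**Figure D4:**
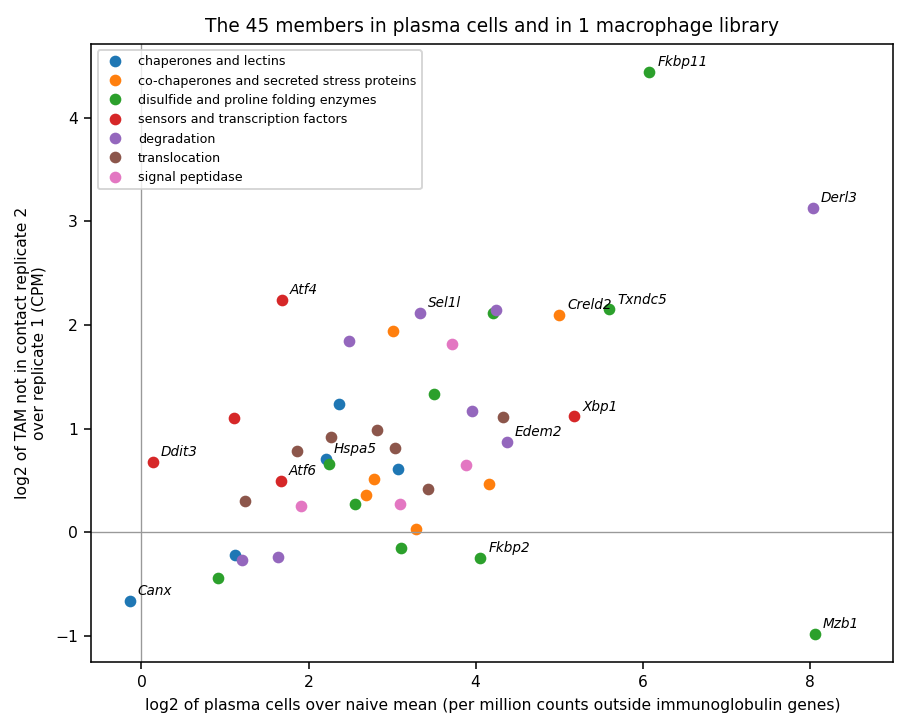
Each point is 1 of the 45 members, coloured by role: log2 of plasma cells over the naive mean (CPM outside immunoglobulin counts, horizontal) and log2 of non-contact TAM replicate 2 over replicate 1 (CPM, vertical). Points rise to the right on the whole (Spearman 0.44), with Mzb1 far below and Atf4 and Fkbp11 above the others at their place on the horizontal axis.

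Members with and without an ERSE or ERSE-II match are given side by side as a description. The 11 with a match had a median ratio of 1.58 between the non-contact TAM libraries and 9 were highest in replicate 2, and the 25 with a window but no match had 1.83 and 19. The median log2 of plasma cells over naive outside immunoglobulin counts was 2.69 and 3.29. Those with a match had ratios of 8.74 (Derl3), 4.27 (Creld2), 3.60 (Syvn1), 2.26 (Herpud1), 1.63 (Hspa5), 1.58 (Pdia6), 1.53 (Hsp90b1), 1.43 (Dnajb11) and 1.29 (Dnajc3). Calr (0.86) and Canx (0.63), which carry the ERSE as well, were lower in replicate 2.

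The rest of the pathway was read from 5 further lists, and edgeR called 0 of their genes in any macrophage comparison. For contact TAM over non-contact TAM, DESeq2 called 3 folding, 4 ER export and 1 stress signalling gene lower (7.09% of all genes). It called 1 stress signalling gene higher (3.25%). Over naive macrophages, it called higher in non-contact TAM 1 folding, 3 stress signalling, 1 degradation, 2 signal recognition and 2 ER export genes (4.36%). In contact TAM over naive it called 3 stress signalling genes and 1 signal recognition gene higher (3.05%). By edgeR, plasma cells were higher than naive macrophages in 20 of 21 genes of signal recognition and N-glycosylation and in 20 of 26 genes of ER export and retrieval. They were higher in 11 of 17 further degradation genes and in 8 of 18 further folding genes. In these lists 0 were lower, while 12.3% of all genes were higher and 15.3% lower. By CPM, which is compressed in plasma cells, the summed level there was above naive for signal recognition and N-glycosylation (3667 and 3729 against 2918 and 3275). It was below naive for ER export (2887 and 2633 against 3483 and 3646), further degradation (1638 and 1254 against 1924 and 1913) and further folding (1846 and 1393 against 2110 and 2597). Krtcap2, a subunit of the oligosaccharyltransferase, stood at 68.9 and 168 CPM in plasma cells and 19.4 and 22.3 in naive macrophages. Prdx4, an ER peroxidase, stood at 204 and 331 against 33.6 and 19.4 CPM, with 38.8 and 219 CPM in non-contact TAM. Kdelr3, a retrieval receptor, stood at 14.0 and 16.7 CPM in plasma cells against 0.171 and 0.519 in naive macrophages, and at 0.411 and 7.96 in non-contact TAM.

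The fifth list held further stress signalling genes. Of these 16, edgeR called 4 higher and 1 lower in plasma cells than in naive macrophages (12.3% and 15.3% of all genes). Their summed level was 646 and 401 CPM in plasma cells, 1620.1 and 4886 in non-contact TAM, 1662 and 2129 in contact TAM, and 1120.5 and 1193 in naive macrophages. CPM in plasma cells is compressed by the immunoglobulin counts, so these sums do not rank plasma cells against macrophages. Atf3, a stress-induced repressor, stood at 119.7 and 1331 CPM in non-contact TAM, 99.7 and 198 in contact TAM, 16.4 and 10.6 in the naive pair and 2.45 and 2.89 in the plasma cell pair. Ppp1r15a (GADD34), which reverses the translational block set by PERK, stood at 88.0 and 1795, 122 and 468, 69.6 and 70.6, and 82.3 and 25.1 CPM. Both were higher in non-contact TAM replicate 2 than in any plasma cell library. Nfe2l2 (NRF2) was the gene called lower in plasma cells, at 24.2 and 17.8 CPM against 211 and 258 in naive macrophages (log2 fold change -1.43, edgeR adjusted p = 0.0190). Its level in all 4 TAM libraries, 462 to 546 CPM, was above naive, and non-contact TAM over naive gave 1.29 ± 0.29 (edgeR adjusted p = 0.219).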

How the data were processed

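RNA of 6 macrophage and 2 plasma cell samples was sequenced, and the authors deposited raw read counts per gene as 2 tables. Tools and builds named in the submitters' processing notes are DESeq2 1.26, featureCounts and STAR, with mm10 and GRCm38. Not given in the sources used here were annotation release, strand setting and the handling of multi-mapping reads. Columns were matched to samples by their labels, leaving 0 unmatched. GENCODE M21 named 47224 of the 47643 macrophage identifiers. Those it did not name took 0.117% of counts or less in each library. The members and lists were chosen with earlier results of these data known. The main fit for macrophages was edgeR 4.0.16 (quasi-likelihood, default quasi-dispersion, TMM, filterByExpr with minimum count 10 and total 15) on 6 libraries with a group term (15522 genes, 3 residual degrees of freedom). All 8 libraries were fitted on shared symbols (15653 genes, 4 residual degrees of freedom). A call is an adjusted p under 0.05 (Benjamini-Hochberg, over every gene of the fit). Fold changes are log2 with SE. Replicates are samples with separate labels, so a p-value reflects only how far these samples spread, which may be technical.

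Members named with a test are the 3 of each role with the smallest p in a macrophage comparison, plus Hspa5, Xbp1, Ddit3, Atf4, Creld2, Manf, Derl3 and Mzb1. Members named in plasma cell comparisons, and Kdelr3, were chosen after their values were seen. Of the further lists, which include markers of macrophages, plasma cells, B cells, neutrophils, eosinophils, erythroid cells, megakaryocytes and T cells, up to 4 genes with the smallest p per comparison may be named. Ranges of totals and of the limit set by 3 counts are in the text, and intervals are 95% Wilson. Reads have no molecular identifiers, so intervals cover counting error only. Both tools were tested on simulated counts in which 200 genes were altered. Each gene's mean was taken over all libraries of the fit, with the same dispersion for every gene and no other group difference. The simulation thus held neither a deviating library nor the immunoglobulin share of plasma cells. Its figures check the procedure and do not give the power or error in these data. With the change placed in contact TAM and tested against non-contact TAM (12383 genes), edgeR found 78 of the 100 with a log2 change of 2. It found 100 of the 100 with a change of 4 and made 6 false calls, whereas DESeq2 1.42.0 found 87 and 100 and made 33. With the change placed in plasma cells and tested against naive (12164 genes), the figures were 80, 100 and 7 for edgeR and 84, 100 and 26 for DESeq2. Alternatives were DESeq2, RLE factors, no filter, a filter of 1 CPM in 2 libraries, the other quasi-dispersion of edgeR, no immunoglobulin genes, a replicate block and leaving out each library. Library totals as the only scaling, and DESeq2 without non-contact TAM replicate 2, were added after seeing the data. R 4.3.3, limma 3.58.1, Python 3.11.15, matplotlib 3.10.9, scipy 1.17.1, pandas 2.3.3 and numpy 2.4.6 were used.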

Additional observations from a re-analysis of the deposited data

How the results depend on the processing

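EdgeR called 0 members in each macrophage comparison. For contact TAM over non-contact TAM, DESeq2 called 13, edgeR without a filter 8, fits leaving out 1 library 0 to 14, and DESeq2 without non-contact TAM replicate 2 called 4 (of all genes, DESeq2 called 10.3%, edgeR without a filter 7.2%, and the last fit 8.45%). For contact TAM over naive these were 2, 3, 0 to 2, and 6 (7.86%, 5.53% and 13.9% of all genes), and for non-contact TAM over naive 10, 11, 0 to 9, and 4 (8.03%, 5.96% and 12.8%). For plasma cells over naive (39 called), leaving out 1 library gave 13 to 43 and library totals as the only scaling 25 (23 higher, 2 lower). Over contact TAM (39) these were 20 to 41 and 25 (21 higher, 4 lower), and over non-contact TAM (33) 20 to 35 and 14 (11 higher, 3 lower). The cause of these shifts was not tested, except that leaving out a library lowers the number of samples. The median scaled plasma cell level of 14.0% was 5.37% by Jchain and 13.3% to 13.9% without 1 plasma cell library. Log2 fold changes that turned were Hyou1 for contact TAM over non-contact TAM (0.0096 by DESeq2 without non-contact TAM replicate 2), Atf4 for non-contact TAM over naive without that library (-0.12, and -0.16 by DESeq2, with up to 2.03 when another library was left out), and plasma cells over naive with library totals only for Calr (-0.58), Canx (-1.82), Pdia3 (-0.78), Ern1 (-0.55) and Ddit3 (-1.54). Of 567 refits of 37 named fold changes, 481 kept direction and side of the threshold, 75 came to pass it, 3 no longer passed and 8 reversed.

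With the replicate number as a block, 0 members were called in each macrophage comparison (59, 187 and 0 genes in all, against 0, 34 and 0), with medians of -0.60, 0.17 and 0.70. The block rests on a shared number. Deviations of the mouse 1 libraries from their group means correlated at 0.18 over 15485 genes. With 2 libraries per group the mouse 2 libraries give the same value by construction, so it cannot show whether either pair shares an animal. Sex-linked genes showed that the mouse 2 libraries are not from the same single animal. Depth limits Sec61g most, at 0.491 CPM in naive replicate 1.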
